A study of Mus musculus with 6 samples.

Results

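The miR-297, miR-466, miR-467 and miR-669 families are rodent miRNAs, most of which are cut from hairpins inside 1 intron of the gene Sfmbt2. They were taken by name: every feature of the table called miR-297, miR-466, miR-467 or miR-669, with any letter or strand suffix. That gave 70 of the 1184 miRNAs in the table, of which 4 are miR-297, 26 miR-466, 12 miR-467 and 28 miR-669. Small RNA was sequenced from GMLPs, a progenitor population sorted from mouse bone marrow and kept for 3 days in culture with DOX (doxycycline). The L28BME libraries (n = 3) had the genotype LIN28B MLL-ENL, and the ME libraries (n = 3) had the genotype MLL-ENL. MLL-ENL is a leukaemia fusion gene and was thus shared by both groups, as was DOX. LIN28B is a fetal RNA-binding protein that blocks the maturation of let-7 miRNAs. The labels used here name neither the promoters of the transgenes nor the age of the mice. Nor do they say whether each library had its own mouse or culture, so a p-value here reflects library-to-library spread, part of which may be technical.

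A miRNA is cut from 1 arm of a hairpin, the 5p strand or the 3p strand, and loads an Argonaute protein, which then finds messenger RNAs that pair with its seed (bases 2 to 8). Sfmbt2 encodes a polycomb group protein and is imprinted in mouse and rat: mainly the paternal copy is active, above all in the early embryo and the placenta. Its large intronic array of miRNA hairpins is found in rodents and is known for work on placental growth and embryonic stem cells. In mouse muscle, miR-669a represses the myogenic factor MyoD. The strands of these hairpins are built of short repeats, UG-rich on one arm and CA-rich on the other, and many differ by only a few bases.

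The RefSeq table (GRCm38.p6) held a mature sequence for 7 of the 70 miRNAs, all from hairpins outside Sfmbt2. They are shown because they carry the repeats that mark these families and because miR-466k among them passed the test below. Each is written 5′ to 3′ with the seed in capitals.
miR-466k: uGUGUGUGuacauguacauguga
miR-466j: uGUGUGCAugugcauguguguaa
miR-467h: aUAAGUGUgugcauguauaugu
miR-669n: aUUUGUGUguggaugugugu
miR-466i-3p: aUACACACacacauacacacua
miR-466q: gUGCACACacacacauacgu
miR-467g: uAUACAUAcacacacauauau
No pair of the 7 shared a seed. The first 4 each hold the letters UGUGUG, as do 28 of the 1679 mature mouse miRNAs of the RefSeq table (1.67%). The other 3 each hold ACACAC, found in 11 of the 1679 (0.655%), and also ACAUAC, found in 7 of the 1679 (0.417%). These searches cover the mature strand as written, and a match is a description of the letters only. RefSeq hairpin sequences were at hand for 4 family hairpins, Mir297-1, Mir466k, Mir467h and Mir669n, all outside Sfmbt2. None of these 4 holds GGAG, the letters that LIN28 proteins are known to bind in the let-7 loop, while 447 of 1005 mouse hairpins in the table do (44.5%). No hairpin of the Sfmbt2 intron could be searched, so whether those hold GGAG is not known here.

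Sfmbt2 lies on chromosome 2 from 10370510 to 10595253 on the plus strand (GRCm38, GENCODE M21). The annotation places 81 hairpins of these families in the genome, 71 of them in Sfmbt2. All 71 sit in intron 10 (10461473 to 10523944, 62.5 kb), on the strand of the gene, within a stretch of 51.6 kb. By hairpin name, 58 of the 70 miRNAs come from Sfmbt2 alone and 4 from both Sfmbt2 and another site (miR-297a-5p, miR-466f, miR-466f-3p and miR-466f-5p). The other 8 come from elsewhere, miR-466i-5p, miR-466i-3p, miR-466j, miR-466k, miR-466q, miR-467g, miR-467h and miR-669n. Several names stand for many copies: miR-669a has 12 hairpins in the intron, miR-467a has 10 and miR-466b has 8. No source used here says how the authors' counting divided reads among such near-identical copies. The split between single names is therefore uncertain, and family sums are given as well.

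The deposited values, called CPM in the header, are counts scaled by the authors with a factor per library, and they are called scaled values here. Whole counts, called reads here, could be recovered from them, 2745970 to 4332618 per L28BME library and 4778027 to 5528960 per ME library. No source used here says whether they count reads or molecular identifiers. Without let-7 the totals were 2654861 to 4192216 in L28BME and 3465097 to 4071269 in ME. The families held 11255 to 17953 reads per L28BME library and 10704 to 13267 per ME library. Of all reads they made up 0.416% ± 0.00712 in L28BME and 0.237% ± 0.0153 in ME (SD, n = 3 each). Of the reads without let-7 they made up 0.430% ± 0.00719 in L28BME and 0.323% ± 0.0185 in ME. The share was higher in every L28BME library than in any ME library on both bases, and the gap was narrower without let-7.

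Summed over the 70 miRNAs, the scaled values were 3394, 3599 and 3515 in L28BME libraries 004, 005 and 006, against 3076, 2842 and 2539 in ME libraries 001, 002 and 003. The groups did not overlap, and the sum was 1.24-fold higher in L28BME. The miR-669 family gave the largest of the 4 sums, 1295 ± 63.4 in L28BME and 1016 ± 93.2 in ME (1.28-fold). The miR-466 family summed to 1188 ± 13.9 in L28BME and 1000 ± 87.2 in ME (1.19-fold), and the miR-467 family to 946 ± 23.5 in L28BME and 752 ± 83.3 in ME (1.26-fold). The small miR-297 family summed to 73.8 ± 3.93 in L28BME and 50.8 ± 6.67 in ME, a ratio of 1.45 (SD, n = 3 each). In none of the families did an ME library reach the lowest L28BME library. These ratios depend on the scaling: with plain library size the total was 0.81 higher on the log2 scale in place of 0.31, and the median of all tested miRNAs then moved up by 0.50 as well. ME library 003 had the lowest ME value for 24 of the 34 tested members, and without it the log2 ratio of the total was 0.24.

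**Figure D1:**
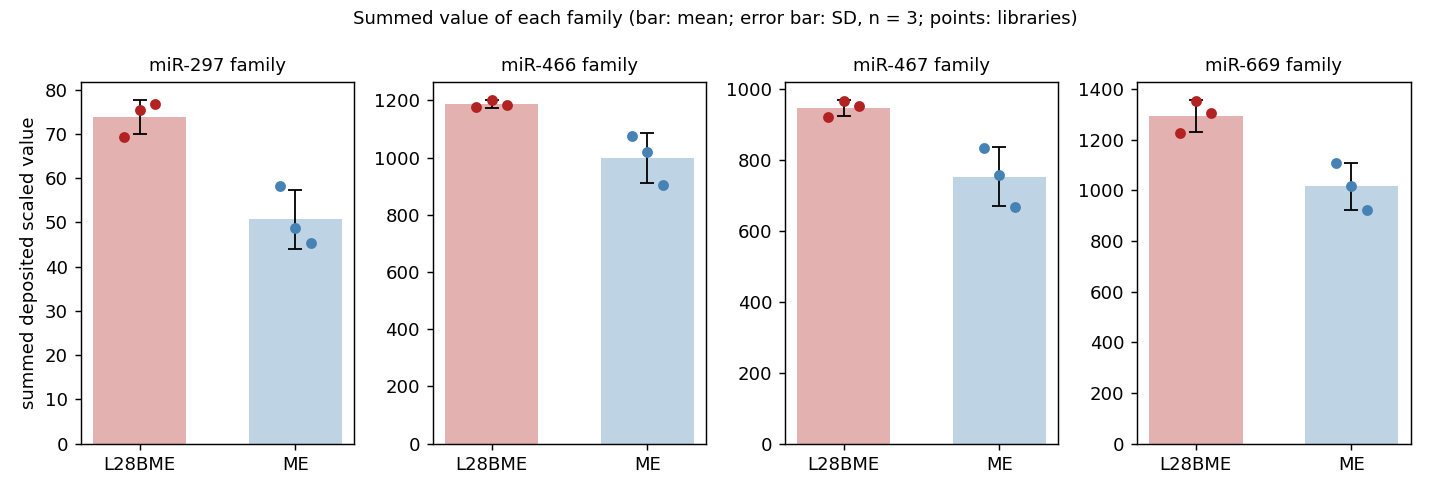
Summed scaled value of each family, with L28BME left of ME and a y axis from 0 in each panel. Bars are means, error bars SD (n = 3) and points single libraries; each L28BME point lies above each ME point in all 4 panels, with mean ratios from 1.19 (miR-466) to 1.45 (miR-297).

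To ask which single miRNAs differed, the 387 miRNAs that reached a scaled value of 5 in 3 or more libraries were tested together with limma (trend, on log2(scaled value + 1)). A miRNA was called where its Benjamini-Hochberg adjusted p was under 0.05. Of the 70 family members 34 passed this filter. Of these 34, 18 rose in L28BME (52.9%), while 24.0% of all tested miRNAs rose. None of the 34 fell, while 32.0% of all tested miRNAs fell. At an unadjusted limma p under 0.05, 22 of the 34 were higher and 0 lower, a split not given here for all 387. Both edgeR and DESeq2 also called 0 of the 34 lower. Over all 387, edgeR called 116 lower and DESeq2 106. All 34 log2 changes were above 0, as were 48.1% of those of all 387. The 34 ran from 0.02 to 0.88 with a median of 0.33, against a median of -0.01 over all 387. In 24 of the 34 each L28BME library lay above each ME library, as in 27.9% of all tested miRNAs. The filter let 6 of the 34 pass although an ME library lay under 5. Among the 28 with at least 5 in every ME library, 15 rose and the median was 0.30.

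The changes were small, with ratios of group means of 1.18 to 1.87 for the 18 called (median 1.40) and 1.01 to 1.58 for the 16 others (median 1.19). The count of 18 moved with the scaling and with single libraries. With plain library size all of 36 tested members were called higher, against 63.3% of all tested miRNAs. Higher calls then made up 88.5% of all calls among miRNAs in place of 42.9%. With read totals that leave out let-7, 27 of 35 were called, against 33.3% of all tested miRNAs, and the split among calls was 57.7%. Without L28BME library 005 the count was 10 of 32 (31.25%), against 18.8% of all tested miRNAs. Without L28BME library 006 it was again 10 of 32, against 17.5%. Without ME library 003 it was 13 of 34 (38.2%), against 22.5%. Relative to the median of all tested miRNAs the members' median lay 0.28 to 0.37 higher under every setting tried.

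**Figure D2:**
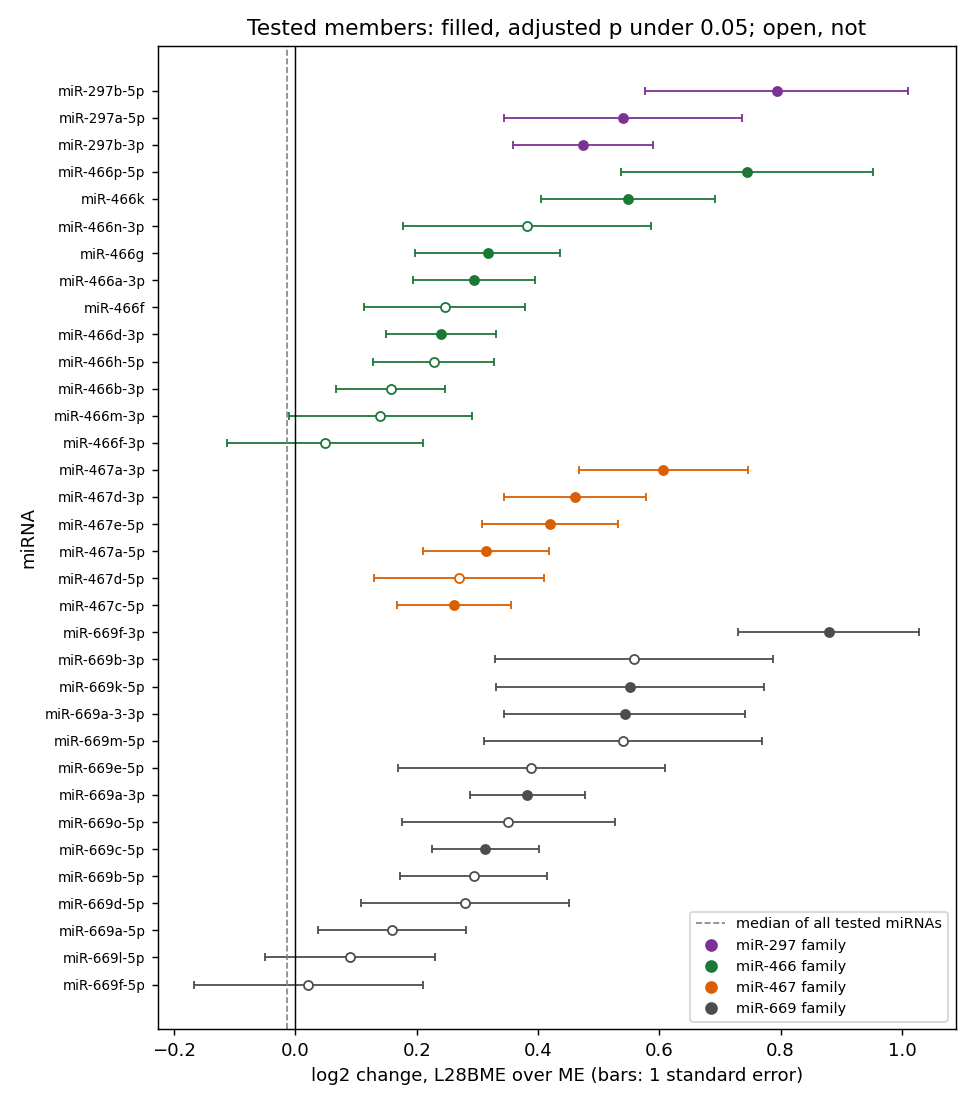
log2 change (L28BME over ME) with its standard error for the 34 tested members, grouped by family; filled points passed the adjusted p, open points did not. All points lie right of 0, from 0.02 (miR-669f-5p) to 0.88 (miR-669f-3p), and the dashed line marks the median of all 387 tested miRNAs, -0.01.

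All 3 tested miR-297 strands rose. The more abundant, miR-297b-3p, had 45.4, 49.7 and 51.2 in L28BME and 38.3, 32.5 and 33.9 in ME. The groups were well apart, with a log2 change of 0.47 ± 0.115 (SE) and a limma adjusted p of 0.00352. Its partner strand miR-297b-5p was scarcer, at 10.2, 9.71 and 10.3 in L28BME and 8.12, 4.19 and 4.51 in ME. It had the second largest log2 change of all tested members, 0.79 ± 0.217 (limma adjusted p = 0.00710), and ME library 001 was the nearest to the L28BME values. This strand lay under the filter level of 5 in ME libraries 002 and 003, and passed the filter only through its L28BME values. miR-297a-5p, which can also come from Mir297-1 on chromosome 7, had 12.3, 13.5 and 13.1 in L28BME and 10.4, 10.1 and 5.93 in ME (0.54 ± 0.196, limma adjusted p = 0.0306). This call rested on single libraries: the adjusted p was 0.117 without ME library 003, whose value was the lowest, 0.073 without L28BME library 005 and 0.081 without L28BME library 006. The remaining member, miR-297c-5p, had 25 reads in L28BME and 19 in ME, and was under the filter.

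In the miR-466 family 5 of 11 tested members rose, with a median log2 change of 0.25. The most abundant, miR-466b-3p, stands for 8 hairpins and had 390, 412 and 399 in L28BME, against 390, 358 and 331 in ME. L28BME lay higher by so little that the lowest L28BME library and the highest ME library nearly met (389.6 and 389.5), and the change of 0.16 ± 0.0899 did not pass (limma adjusted p = 0.151). miR-466a-3p, from the hairpin annotated as Mir466, had 303, 319 and 306 in L28BME and 271, 270 and 218 in ME (0.30 ± 0.101, limma adjusted p = 0.0228). ME library 003 was low here: without it the change was 0.19 and the adjusted p 0.053, and it was 0.077 without L28BME library 005 and 0.071 without L28BME library 006. miR-466d-3p was closely grouped, at 163, 160 and 163 in L28BME and 143, 139 and 130 in ME (0.24 ± 0.0909, limma adjusted p = 0.0368). Its call was lost without any 1 library other than ME library 001, with adjusted p values of 0.058 to 0.120.

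miR-466h-5p, which promotes apoptosis in hamster ovary cells, had 103, 90.4 and 97.1 in L28BME and 86.5, 79.9 and 80.9 in ME. The groups were apart, yet the change of 0.23 ± 0.0996 did not pass (limma adjusted p = 0.0634). The 2 largest changes of the family were those of miR-466p-5p and miR-466k. miR-466p-5p was scarce, at 5.86, 7.10 and 5.93 in L28BME and 3.94, 3.31 and 2.85 in ME. All 3 ME values lay under the filter level, so this strand passed the filter only through its L28BME values. Its log2 change was 0.74 ± 0.208 (limma adjusted p = 0.00799). miR-466g had 37.2, 37.2 and 35.6 in L28BME and 29.5, 32.2 and 26.3 in ME (0.32 ± 0.119, limma adjusted p = 0.0356), and this call was lost without any 1 library other than ME library 002, with adjusted p values of 0.055 to 0.096. The other 4 tested members did not pass: miR-466n-3p (0.38), miR-466f (0.25), miR-466m-3p (0.14) and miR-466f-3p (0.05).

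Among the miR-467 strands 5 of 6 tested rose, with a median log2 change of 0.37. miR-467c-5p led in level, at 425, 456 and 463 in L28BME and 407, 381 and 335 in ME (0.26 ± 0.0942, limma adjusted p = 0.0302). The groups were close, and the adjusted p was 0.067 without ME library 002, 0.061 without ME library 003, 0.092 without L28BME library 005 and 0.126 without L28BME library 006. miR-467e-5p stood further apart, at 294, 328 and 298 in L28BME against 268, 227 and 196 in ME (0.42 ± 0.112, limma adjusted p = 0.00612). Both arms of miR-467a, a name shared by 10 hairpins, rose. The 5p strand had 77.9, 72.0 and 69.3 in L28BME and 60.5, 59.6 and 55.5 in ME (0.31 ± 0.103, limma adjusted p = 0.0185), a call lost without L28BME library 004 (adjusted p = 0.092). The 3p strand was scarcer and its change larger: 29.3, 24.6 and 29.98 in L28BME and 15.5, 19.9 and 18.7 in ME (0.61 ± 0.140, limma adjusted p = 0.00237). For miR-467d the 3p strand rose and the 5p strand did not pass. miR-467d-3p had 38.9, 33.4 and 36.9 in L28BME and 26.2, 26.0 and 26.1 in ME, where the ME libraries were nearly equal (0.46 ± 0.117, limma adjusted p = 0.00465). miR-467d-5p had 43.4 ± 1.69 in L28BME and 36.3 ± 7.64 in ME (SD, n = 3 each), with overlapping groups (0.27, limma adjusted p = 0.113).

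Of 14 tested miR-669 strands 5 rose, and the family held both the largest and the smallest change of all 34, on the 2 arms of 1 hairpin. miR-669f-3p had 33.7, 36.5 and 40.6 in L28BME and 23.9, 19.6 and 15.9 in ME. It was 1.86-fold higher, with a log2 change of 0.88 ± 0.149 (limma adjusted p = 0.000234). miR-669f-5p had 6.62, 8.05 and 6.87 in L28BME and 7.88, 7.73 and 5.69 in ME, groups that overlapped throughout (0.02 ± 0.188, limma adjusted p = 0.934), and its sign turned negative with median-ratio scaling. The most abundant members of all 4 families also belong here. miR-669c-5p, from 1 hairpin and 96th of the 387 tested miRNAs by level, had 482, 507 and 501 in L28BME and 437, 392.0 and 373 in ME (0.31 ± 0.0888, limma adjusted p = 0.00874). miR-669a-3p, from up to 12 hairpins, had 465, 545 and 513 in L28BME and 421, 389 and 358 in ME (0.38 ± 0.0950, limma adjusted p = 0.00408). Both were apart in all libraries and kept their calls under every alternative tried.

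The other arm, miR-669a-5p, had 76.8, 69.4 and 69.6 in L28BME and 74.2, 65.8 and 54.3 in ME, overlapped, and did not pass (0.16, limma adjusted p = 0.273). miR-669b-5p had 52.4, 59.9 and 52.2 in L28BME and 46.4, 49.2 and 38.4 in ME, without overlap, and just missed the threshold (0.29, limma adjusted p = 0.0520). The last 2 calls of the family were of scarce strands. miR-669a-3-3p had 7.18, 7.81 and 6.56 in L28BME and 3.71, 5.52 and 4.74 in ME (0.54 ± 0.199, limma adjusted p = 0.0323). ME libraries 001 and 003 lay under the filter level of 5, so this strand passed the filter only through its L28BME values. Its call was lost without any 1 library other than ME library 002 or 003, with adjusted p values of 0.058 to 0.109. miR-669k-5p had 10.8, 12.8 and 13.7 in L28BME and 11.8, 8.17 and 5.46 in ME, and was the only called member whose groups overlapped (0.55 ± 0.221, limma adjusted p = 0.0458). Without ME library 003 its change was 0.30 and the adjusted p 0.174, and it lost its call without ME library 002 (0.117), L28BME library 005 (0.096) or L28BME library 006 (0.144) too. Others that did not pass were miR-669m-5p (0.54), miR-669o-5p (0.35), miR-669d-5p (0.28), miR-669l-5p (0.09) and 2 scarcer strands.

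**Figure D3:**
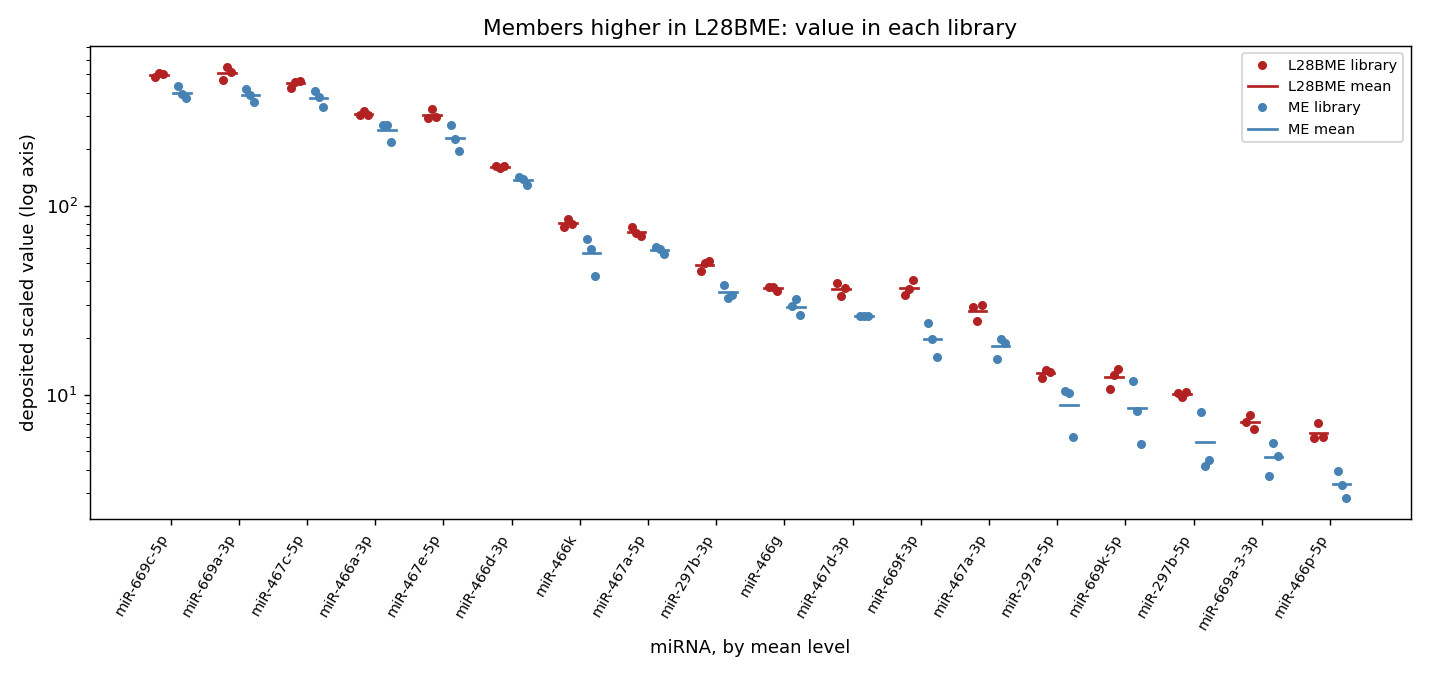
Scaled value (log axis) of the 18 called members in each library, in order of mean level, with L28BME left of ME; short lines are group means (n = 3 each). The L28BME points lie above the ME points for 17 of the 18, and the groups overlap for miR-669k-5p.

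Of the 70, 36 were under the filter, with 1 to 134 reads over all 6 libraries (median 34.5). Their mean value was higher in L28BME for 29 and lower for 7, a split not given here for all miRNAs under the filter. Of the 36, 11 had 10 or fewer reads. Those with the most reads in each family were miR-669m-3p (79 reads in L28BME and 55 in ME), miR-466b-5p (70 in L28BME and 35 in ME), miR-669p-3p (64 in L28BME and 39 in ME), miR-466c-5p (56 in L28BME and 42 in ME), miR-466i-5p (33 in L28BME and 59 in ME) and miR-467e-3p (46 in L28BME and 37 in ME). Of these 6, miR-466i-5p alone had more reads in ME than in L28BME. Fewer reads were found of miR-669e-3p (43 in L28BME and 25 in ME), miR-467b-5p (29 in L28BME and 27 in ME) and miR-467c-3p (29 in L28BME and 21 in ME). For 5 of the 36 no read was found in ME, which allows up to 3 reads among the 15534698 of the ME libraries together. When the filter was lowered to a value of 1, limma fitted 21 of the 36 and called 5 higher and 1 lower (miR-466i-5p). Of all 607 miRNAs fitted at that filter, 115 were called higher (18.9%) and 134 lower. With no filter limma called 9.04% of all 1184 miRNAs higher, and of the 36 it called 2 higher and none lower. Those 2 were miR-466b-5p (0.89, limma adjusted p = 0.0120 with no filter) and miR-466a-5p (0.84, limma adjusted p = 0.0258). miR-466a-5p, named because it was called, had 54 reads in L28BME and 25 in ME.

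Along the intron, tested strands with a single hairpin fell into 2 stretches, a split made after their positions were seen. The stretch from 96.2 to 104.8 kb past the start of Sfmbt2 held 10 such strands, of which 4 rose, with a median log2 change of 0.34. The stretch from 135.2 to 144.4 kb held 13, of which 9 rose, with a median of 0.35. The medians were thus nearly equal, and a difference between the stretches was not tested. Over all tested miRNAs, 24.0% rose. The 35 hairpins between them are mostly copies that share a name. Over the 23 strands of single hairpins 13 rose, and over the 7 tested strands with several hairpins 3 rose, with median log2 changes of 0.35 and 0.31. The Sfmbt2-only miRNAs made up 96.1% of the summed value in L28BME and 96.3% in ME.

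**Figure D4:**
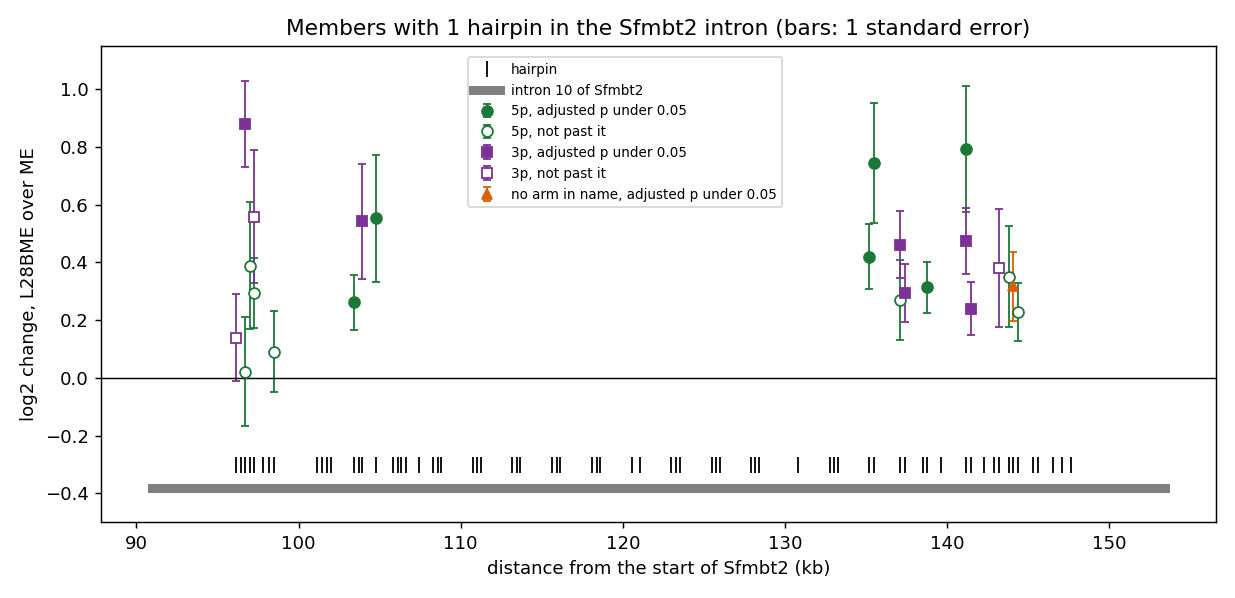
log2 change (L28BME over ME) with its standard error against the distance of the hairpin from the start of Sfmbt2, for the 23 tested strands with 1 hairpin; ticks mark all 71 hairpins and the grey bar intron 10. Filled points passed the adjusted p, circles are 5p, squares 3p and the triangle has no arm in its name; points of both stretches, with medians of 0.34 and 0.35, lie above 0.

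By strand, 8 of 18 tested 5p strands rose (median 0.31) and 8 of 13 tested 3p strands (median 0.38), while 24.0% of all tested miRNAs rose. Both arms were tested for 6 hairpin names, and the ratio of 3p to 5p within a library does not depend on the scaling. For miR-669f it was 5.09, 4.53 and 5.91 in L28BME and 3.03, 2.54 and 2.79 in ME. The ratio was higher in each L28BME library, by 0.89 on the log2 scale. For miR-467a it was 0.384 ± 0.0456 in L28BME and 0.309 ± 0.0455 in ME (SD, n = 3 each), again without overlap. A two-sided exact permutation test gave p = 0.1 for both, the smallest that 3 against 3 libraries allow, and 0.3 when adjusted over the 6 names. The ratios of miR-297b, miR-467d, miR-669a and miR-669b overlapped between the groups. In 5 of the 6 the 3p strand had the larger log2 change, and in miR-297b the 5p strand had. The 6 ratios were compared after the values of single strands had been seen.

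**Figure D5:**
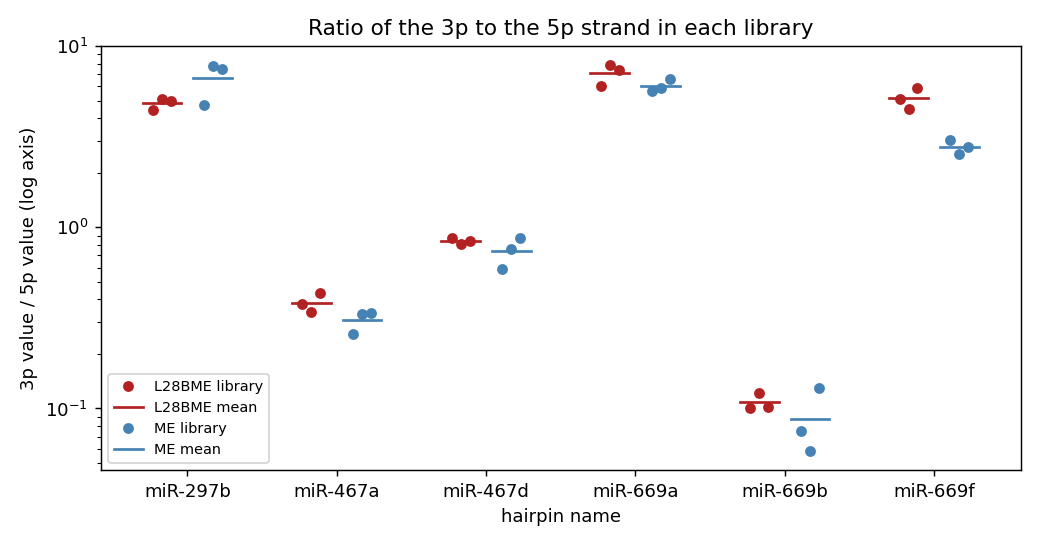
Ratio of the 3p to the 5p scaled value (log axis) in each library for the 6 hairpin names with both arms tested, L28BME left of ME; short lines are group means (n = 3 each). Points of miR-669f (5.17 ± 0.694 in L28BME and 2.79 ± 0.243 in ME, SD) and miR-467a do not overlap, and those of the other 4 do.

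Hairpins outside Sfmbt2 allowed a look at the same families at other sites. miR-466k, whose sequence heads the list above, comes from chromosome 3 (85467377 to 85467498), in an intron of Gm37240 on the opposite strand. It had 77.5, 85.5 and 80.9 in L28BME and 67.2, 58.9 and 42.5 in ME, without overlap, and rose (0.55 ± 0.143, limma adjusted p = 0.00542). It was the only one of the 8 to pass the filter, with 1030 reads in L28BME and 736 in ME. Of the other 7, 3 lay lower in every L28BME library than in any ME library, as did 14.8% of all 1184 miRNAs in the table. They were chosen after their values were seen and were under the filter. miR-466i-5p, from an intron of Cdk13 on the opposite strand, had 2.46, 2.60 and 2.81 in L28BME and 5.56, 4.64 and 3.32 in ME, or 33 reads in L28BME and 59 in ME. miR-466q, from an intron of Tnik on the same strand, had 17 reads in L28BME and 26 in ME, and miR-467g, from an intron of Grk4 on the opposite strand, had 5 in L28BME and 10 in ME. With plain library size the groups overlapped for all 3. With the filter lowered to a value of 1, limma called miR-466i-5p lower (adjusted p = 0.0429), and with no filter it did not pass (0.120). miR-466q did not pass in either fit (limma adjusted p = 0.223 and 0.435), nor miR-467g in the fit with no filter (0.412). miR-466i-3p overlapped, with 31 reads in L28BME and 29 in ME. miR-466j lay higher in every L28BME library than in any ME library, on 6 reads in L28BME and 2 in ME. miR-467h and miR-669n overlapped, with at most 4 reads in a group.

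Other imprinted miRNAs were counted in the same fit as background. Of the tested miRNAs from the Dlk1-Dio3 cluster, a maternally expressed miRNA array, 17 of 19 rose and none fell, with a median log2 change of 0.66. Over all tested miRNAs, 24.0% rose and 32.0% fell. Of 3 tested from other imprinted loci 1 rose, miR-298-5p, at 121 ± 18.9 in L28BME and 71.7 ± 9.09 in ME (SD, n = 3 each). The 4 strands of miR-223 and miR-142a, taken as myeloid markers, summed to 155667 to 172385 in L28BME and 142398 to 168149 in ME. Of these 4, 1 fell (miR-223-5p). Of 9 early embryo and trophoblast markers only 1 was in the table, with a sum of at most 0.312 in L28BME and 0 in ME.

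Markers of other cell types moved with the groups in part. The stromal and endothelial markers (3 of 4 in the table) summed to 350 to 360 in L28BME and 184 to 205 in ME, nearly all of it miR-199a-3p, which rose. The scarce miR-143-3p and miR-145a-5p overlapped between the groups and were under the filter. The 3 erythroid markers summed to 5.62 to 6.63 in L28BME and 1.39 to 2.21 in ME and were under the filter. Epithelial markers summed to 180 to 188 in L28BME and 150 to 170 in ME (1 of 4 rose, miR-200a-3p). The others were not called, and miR-200c-3p had a lower mean in L28BME (45.9) than in ME (52.9), with overlapping groups. The lymphoid pair summed to 315 to 371 in L28BME and 350 to 442 in ME, and none was called. Their part in the family values was not tested. In these bulk libraries more cells of a type and more RNA per cell cannot be told apart.

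By the authors' deposited table, 14 of the 70 were higher in L28BME at an FDR under 0.05 and none was lower, while 96 of all 1452 features were higher (6.61%). Of these 14, 12 were tested here, and all 12 were among the 18 called. The other 2 were under the filter here, miR-466b-5p (FDR 0.00948) and miR-466a-5p (FDR 0.0144) by the authors' deposited table.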

How the data were processed

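Each sample was a QIAseq miRNA library of total RNA, per the labels' protocols, and the genome build was GRCm38, per the submitters' processing notes. No source used here gives the aligner, the counting tool, the reference for miRNA names or the handling of molecular identifiers. The deposited signal values, called CPM per the file headers, were scaled by the authors with a factor per library. Divided by the smallest value above 0 of their library, 100% came out whole (within 0.001), which gave back the whole counts called reads here. On these reads edgeR's quasi-likelihood test called 22 of the 34 tested members higher, against 27.4% of all tested miRNAs. The authors' deposited fold changes (a signed score), log2 fold changes and p-values compare L28BME with ME by a tool not named per the file headers.

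The 268 piRNA features were not in the main test, which was limma with a trend on log2(value + 1), two-sided, with the group as its term. Changes on this scale understate those of scarce miRNAs. Library columns carry library numbers but no replicate numbers, so nothing was paired. Members, lists, tests and alternatives were chosen with earlier results of these data known. Named are the 30 tested members with the highest mean, every called one, and the 3 per family with most reads under the filter. Loci are from GENCODE M21 by hairpin name. The code was tested on simulated data. Versions were limma 3.58.1, DESeq2 1.42.0 and edgeR 4.0.16 under R 4.3.3; matplotlib 3.10.9 drew the figures.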

Additional observations from a re-analysis of the deposited data

How the results depend on the processing

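Over 18 alternatives, 10 of the 18 called members kept their calls wherever they were tested and 8 lost them somewhere, all 8 with some library left out (named beside them above) and 7 of these under another setting too, such as no filter, DESeq2 or limma without the trend; of 598 member values 514 kept direction and side of the threshold. miR-466p-5p, 1 of the 10, was fitted in only 14 of the alternatives, and in none that left out an L28BME library. The count of higher members was 36 with plain library size and ranged from 10 to 18 with 1 library left out. It was 14 with DESeq2, 22 with edgeR, 27 with let-7 left out of the totals and 15 to 20 over the filters. Of all tested miRNAs, the share called higher was 63.3% with plain library size and 17.5% to 24.8% with 1 library left out. That share was 21.4% with DESeq2, 27.4% with edgeR, 33.3% without let-7 and 9.04% to 25.4% over the filters. The count of lower members was 1 (miR-466i-5p) with the filter at 1, and 0 otherwise. With plain library size the log2 ratio of summed values was 0.81 for all members, 1.04 for miR-297, 0.75 for miR-466 (0.35 with totals without let-7), 0.83 for miR-467 and 0.85 for miR-669; the median of all tested miRNAs moved by 0.50, and by 0.10 without let-7. The sign of miR-669f-5p turned with median-ratio scaling (-0.0022), without ME library 003 (-0.11) and without L28BME library 005 (-0.053), from -0.11 to 0.094 over left-out libraries; that of miR-466f-3p turned without L28BME library 004 (-0.062, highest 0.16). The causes were not tested. Where 1 library was left out, its group kept 2. No paired analysis was possible because columns name a library and its group, with no replicate number. Whether any of the 36 members under the filter was called depended on the filter: 5 higher and 1 lower with it at 1, 2 higher with none. Of all miRNAs fitted, 18.9% were called higher with the filter at 1 and 9.04% with none.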
